A study of Mus musculus with 2 samples.

Results

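The genes described here make, sense, move, esterify and export cholesterol. They are 31 genes chosen by symbol from the 33696 rows of the count matrices, and all 31 were found in both. The 31 comprise 17 enzymes of cholesterol synthesis (Acat2, Hmgcs1, Mvk, Pmvk, Mvd, Idi1, Fdps, Fdft1, Sqle, Lss, Cyp51, Msmo1, Nsdhl, Hsd17b7, Ebp, Sc5d and Dhcr7) and 14 genes outside synthesis. The latter are the sterol sensors and regulators Srebf2, Scap, Insig1 and Insig2, the intracellular sterol carriers Stard4, Npc1 and Npc2, the exporters Abca1, Abcg1, Abcg5 and Abcg8, the esterifying enzymes Soat2 and Lcat, and Mylip, which marks lipoprotein receptors for degradation. A further 35 genes of cholesterol handling were counted for comparison.

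The liver makes much of the body's cholesterol and is the organ that secretes it into bile. When sterol is scarce in the endoplasmic reticulum, SCAP escorts SREBP2, the product of Srebf2, to the Golgi, where it is cleaved into a transcription factor for the synthesis genes. INSIG proteins hold SCAP back when sterol is plentiful, and Insig1 is itself a target of SREBP factors. Surplus sterol is sensed by LXR receptors, which raise transcription of Abca1, Abcg1, Abcg5, Abcg8 and Mylip.

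Mouse liver was dissociated and its cells were sequenced in droplets, with a 3' kit that counts RNA molecules by unique molecular identifiers (UMIs). There was 1 library labelled SLC22A18-/-, called here the knockout-labelled library, and 1 library labelled SLC22A18+/+, called the wild-type library. Slc22a18 encodes a membrane transporter of the organic cation family. The sources used here do not state strain, age, sex, treatment, number of animals, the deleted sequence or whether introns were counted. With 1 library per genotype there is no replicate, so no difference was tested, and genotype cannot be told apart from animal, dissociation or library preparation.

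The libraries held 103478998 and 105556354 UMIs, and 11134 and 12029 cells with a median of 5854 and 5362 UMIs were kept (knockout-labelled first here and below). The libraries shared 38 barcode sequences. The labels could not be checked from the targeted gene: Slc22a18 reads were present in both, at 54.7 and 58.9 counts per 1000000 UMIs (CPM) in hepatocytes, a ratio of 0.929 (0.862 to 1.001), although the ratio was 0.318 in endothelial cells and 0.482 in Kupffer cells. Cells were grouped into 51 clusters, and the comparison covers the 8 classes that held 100 cells or more on both sides: hepatocytes (2916 and 3042 cells), endothelial cells (2590 and 2757), Kupffer cells (1475 and 1287), B cells (717 and 968), T cells (635 and 675), stellate cells (468 and 533), neutrophils (162 and 184) and conventional dendritic cells (114 and 112). Each name stands for "hepatocyte-like" and so on, since it rests on marker genes alone. Unnamed clusters held 15.5% and 17.4% of the cells. Among them was cluster 7, with 307 and 375 cells, which scored highest for hepatocytes but stayed unnamed for low UMIs (median 1464.5). It is left out of the hepatocyte values below.

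For each gene, UMIs were added up within a class and library and scaled to CPM. Intervals in parentheses are exact 95% intervals that cover counting error only. A gene is called higher or lower by size: 50 or more UMIs over both libraries, CPM that differ 1.5-fold or more, and an interval that leaves out 1. Levels are compared between cells, never between genes.

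Of the 31 genes, 24 were found in the RefSeq promoter table of GRCm38.p6, with windows from 250 bases before to 50 bases after a transcription start. The upstream 250 bases of 6 of them are shown because the results below turn on these genes. They are Hmgcs1, the first committed enzyme of the mevalonate route, the demethylation enzymes Msmo1 and Nsdhl, the sensor Insig1, the exporter Abca1, and Abcg8, whose partner Abcg5 starts on the opposite strand with 107 bases between the starts. Sequences run 5′ to 3′ toward the start, and capitals mark matches to the sterol response element TCACNCCAC, the NF-Y box CCAAT, the E-box CACGTG and the LXR direct repeat on either strand.
Hmgcs1, chr13:119690101-119690350, plus strand: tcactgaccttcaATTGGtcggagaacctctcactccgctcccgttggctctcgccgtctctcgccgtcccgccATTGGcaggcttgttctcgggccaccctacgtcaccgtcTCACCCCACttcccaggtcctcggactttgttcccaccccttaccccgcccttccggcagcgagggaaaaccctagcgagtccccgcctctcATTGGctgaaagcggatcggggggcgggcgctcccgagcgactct
Msmo1, chr8:64733579-64733828, minus strand: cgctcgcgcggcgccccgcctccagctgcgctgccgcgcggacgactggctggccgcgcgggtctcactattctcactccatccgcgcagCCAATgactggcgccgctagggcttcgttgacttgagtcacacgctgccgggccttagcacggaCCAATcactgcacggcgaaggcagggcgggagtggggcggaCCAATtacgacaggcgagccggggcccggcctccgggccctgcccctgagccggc
Nsdhl, chrX:72918271-72918520, plus strand: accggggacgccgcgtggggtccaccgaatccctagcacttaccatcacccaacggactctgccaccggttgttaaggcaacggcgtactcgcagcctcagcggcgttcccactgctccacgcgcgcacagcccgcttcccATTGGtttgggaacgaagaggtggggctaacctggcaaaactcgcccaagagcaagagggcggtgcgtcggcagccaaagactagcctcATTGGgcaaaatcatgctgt
Insig1, chr5:28071162-28071411, plus strand: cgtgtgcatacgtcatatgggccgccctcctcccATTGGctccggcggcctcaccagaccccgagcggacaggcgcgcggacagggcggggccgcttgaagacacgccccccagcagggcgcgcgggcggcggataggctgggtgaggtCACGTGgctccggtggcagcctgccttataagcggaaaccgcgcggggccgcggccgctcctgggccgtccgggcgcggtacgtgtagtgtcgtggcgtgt
Abca1, chr4:53159896-53160145, minus strand: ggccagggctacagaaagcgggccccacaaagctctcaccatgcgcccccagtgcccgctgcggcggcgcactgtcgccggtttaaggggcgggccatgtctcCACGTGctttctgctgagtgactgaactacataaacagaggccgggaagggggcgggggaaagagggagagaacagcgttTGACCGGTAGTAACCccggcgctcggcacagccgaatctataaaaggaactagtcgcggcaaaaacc
Abcg8, chr17:84682871-84683120, plus strand: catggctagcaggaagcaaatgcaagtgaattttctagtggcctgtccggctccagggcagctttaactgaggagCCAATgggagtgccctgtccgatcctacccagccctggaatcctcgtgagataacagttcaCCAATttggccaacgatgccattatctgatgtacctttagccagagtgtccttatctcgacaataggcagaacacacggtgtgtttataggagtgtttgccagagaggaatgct

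A CCAAT box, bound by NF-Y, was present in a window of 21 of the 24 genes and of 13 of the 14 synthesis enzymes in the table, against 41.1% of all 27025 genes there. Among the regulators Srebf2, Insig1 and Insig2 had at least 1. The counts per gene reached 5 in Mvk and 4 in Hmgcs1 and Nsdhl, and Hsd17b7, Msmo1, Insig2 and Mylip had 3 each. Matches at bases 11 to 15 after the start in Hmgcs1, and at 9 to 13 and 35 to 39 in Nsdhl, lie outside the printed sequences. The sterol response element occurred in Hmgcs1 only, 137 to 129 bases before its start, against 1.44% of all genes. The E-box occurred in 6 genes (Abca1, Dhcr7, Hsd17b7, Insig1, Sc5d and Scap), against 8.09%. Abca1 alone held the LXR repeat, 67 to 53 bases before its start, against 0.226%. No matches overlapped in the sequences printed above. A match describes letters only and is not evidence of binding.

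**Figure D1:**
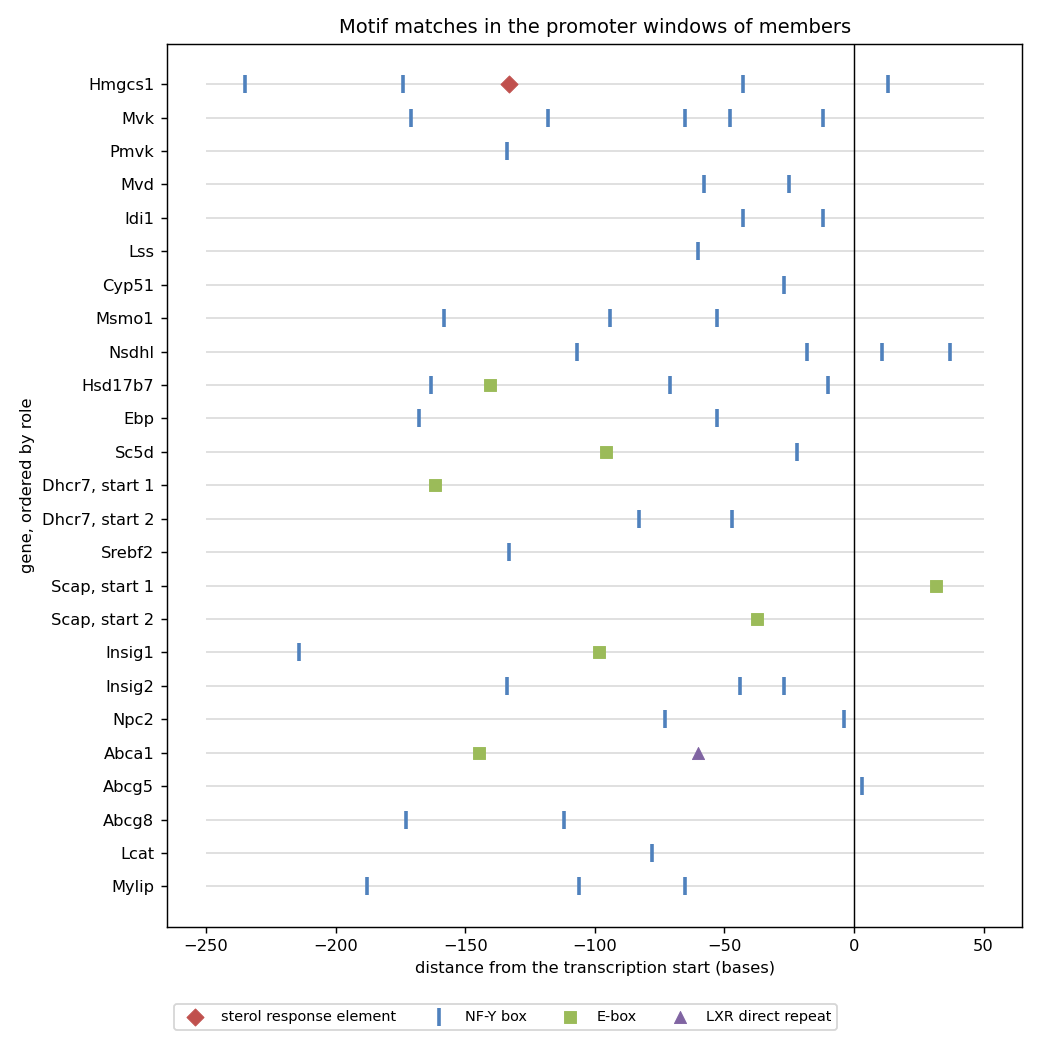
Positions of motif matches relative to the transcription start (x axis, in bases) for each of the genes with a match (y axis). Symbols stand for the 4 motifs and grey lines for the 300-base windows; the 13 synthesis enzymes with a CCAAT box fill the upper rows, and the sterol response element and the LXR repeat each appear once, in Hmgcs1 and Abca1.

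Transcripts of the synthesis enzymes were highest in hepatocytes. The 17 together reached 1927 and 2107 CPM there, against 253 to 565 CPM in the other 7 classes of the knockout-labelled library and 257 to 677 CPM in those of the wild-type library. Of the 31 genes, 23 were highest in hepatocytes by at least 1.5-fold over the next class in both libraries, among them 15 of the 17 enzymes. Across all genes tested, 16.8% met that rule.

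Sc5d, which introduces a late double bond of the sterol ring, stood at 476 and 470 CPM in hepatocytes and at 31.6 to 112 CPM elsewhere. Hmgcs1 stood at 262 and 343 CPM, and its next class was neutrophils with 83.1 and 122 CPM. The 2 enzymes short of the rule were Mvk, the mevalonate kinase, and Cyp51, the lanosterol demethylase. Mvk reached 15.1 and 14.9 CPM in hepatocytes against 14.7 and 10.2 CPM in T cells. Cyp51 reached 54.0 and 65.8 CPM in hepatocytes, and 39.6 and 34.6 CPM in B cells. In neutrophils Cyp51 ranged from 22.3 CPM in the knockout-labelled library to 61.0 CPM in the wild-type library.

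Free RNA from broken cells can enter any droplet, so each class was set against the level that its Alb reads would carry over. On that allowance 13 of the 17 enzymes lay above the carried-over level in conventional dendritic cells of both libraries, 11 in stellate cells, 9 each in endothelial and Kupffer cells, 8 in T cells, 3 in B cells and 2 in neutrophils. The sum over the enzymes was 0.751 times the allowance in B cells and 0.953 times in neutrophils of the knockout-labelled library, where it could not be told apart from free RNA, and 1.17 and 1.54 times in the wild-type library. Dendritic cells lay farthest above it, at 2.58 and 4.75 times. These values depend on the source taken for free RNA, hepatocyte cluster 36 described below. That cluster held 3350 and 3111 CPM of the enzymes beside 34644 and 44685 CPM of Alb. Hepatocyte cluster 10 held 3291 and 3487 CPM beside only 10225 and 14059 CPM of Alb. An allowance drawn from cluster 10 would be higher, and the classes were not set against it.

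Of the 4 regulators, 3 (Scap, Insig1 and Insig2) were highest in hepatocytes by the 1.5-fold rule and Srebf2 was not. Srebf2 stood at 146 and 145 CPM in B cells and at 138 and 147 CPM in dendritic cells, above the 111 and 97.4 CPM of hepatocytes, and it was above the free-RNA allowance in all 7 other classes of both libraries. Scap and Insig2, the escort and the retention protein, were highest in hepatocytes, at 175 and 155 CPM and at 140.0 and 152 CPM. In hepatocyte clusters poor in the nuclear RNA Malat1, described below, Scap stood at only 24.4 and 26.4 CPM. Its next classes were higher than that, neutrophils at 38.5 CPM (knockout-labelled) and T cells at 32.7 CPM (wild-type). Insig1 was also highest in hepatocytes. Kupffer cells followed in the knockout-labelled library with 76.0 CPM and neutrophils in the wild-type library with 73.6 CPM.

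Among the carriers, Npc1 and Npc2, which act together to move cholesterol out of lysosomes, had opposite profiles. Npc1, the membrane protein, was highest in hepatocytes at 297 and 273 CPM. In the Malat1-poor hepatocyte clusters it stood at 36.7 and 50.1 CPM, below Kupffer cells at 57.1 and 67.3 CPM. Npc2, the soluble partner, was highest in Kupffer cells at 955 and 879 CPM and next in dendritic cells at 595 and 581 CPM, against 43.9 and 53.4 CPM in hepatocytes. Stard4, a cytosolic sterol carrier, was shared by hepatocytes (107 and 113 CPM) and endothelial cells (75.0 and 73.6 CPM), where the free-RNA allowance was 7.50 and 4.87 CPM.

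Export separated by cell type. Abca1, which loads cholesterol onto apolipoprotein A-I, stood at 947 and 993 CPM in Kupffer cells and at 304 and 267 CPM in hepatocytes. Abcg1, which passes sterol to formed particles, stood at 201 and 199 CPM in Kupffer cells, 100 and 112 CPM in endothelial cells and only 3.84 and 5.79 CPM in hepatocytes. Abcg5 and Abcg8, the paired subunits of the biliary transporter, were the reverse. Abcg5 reached 121 and 118 CPM in hepatocytes and at most 14.7 CPM in any other class, and Abcg8 reached 164 and 174 CPM against at most 18.9 CPM. In the Malat1-poor hepatocyte clusters Abcg5 stood at only 10.9 and 17.2 CPM and Abcg8 at 17.1 and 19.0 CPM. Neutrophils, the next class, had similar values, 10.1 and 14.7 CPM for Abcg5 and 14.2 and 18.9 CPM for Abcg8.

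Soat2, which esterifies sterol inside hepatocytes, stood at 83.7 and 77.8 CPM there and at most 12.2 CPM elsewhere. In the Malat1-poor hepatocyte clusters it stood at 7.28 and 8.80 CPM. Lcat, the secreted plasma esterifying enzyme, stood at 80.3 and 65.6 CPM and at most 18.2 CPM. Mylip was lowest in hepatocytes, at 8.25 and 8.55 CPM, and highest in endothelial cells at 400 and 369 CPM, with 224 and 221 CPM in stellate cells. After thinning each cell to 2000 UMIs, Mylip was seen in 1.71% and 1.59% of hepatocytes, below its share of 8.18% and 10.8% in T cells.

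**Figure D2:**
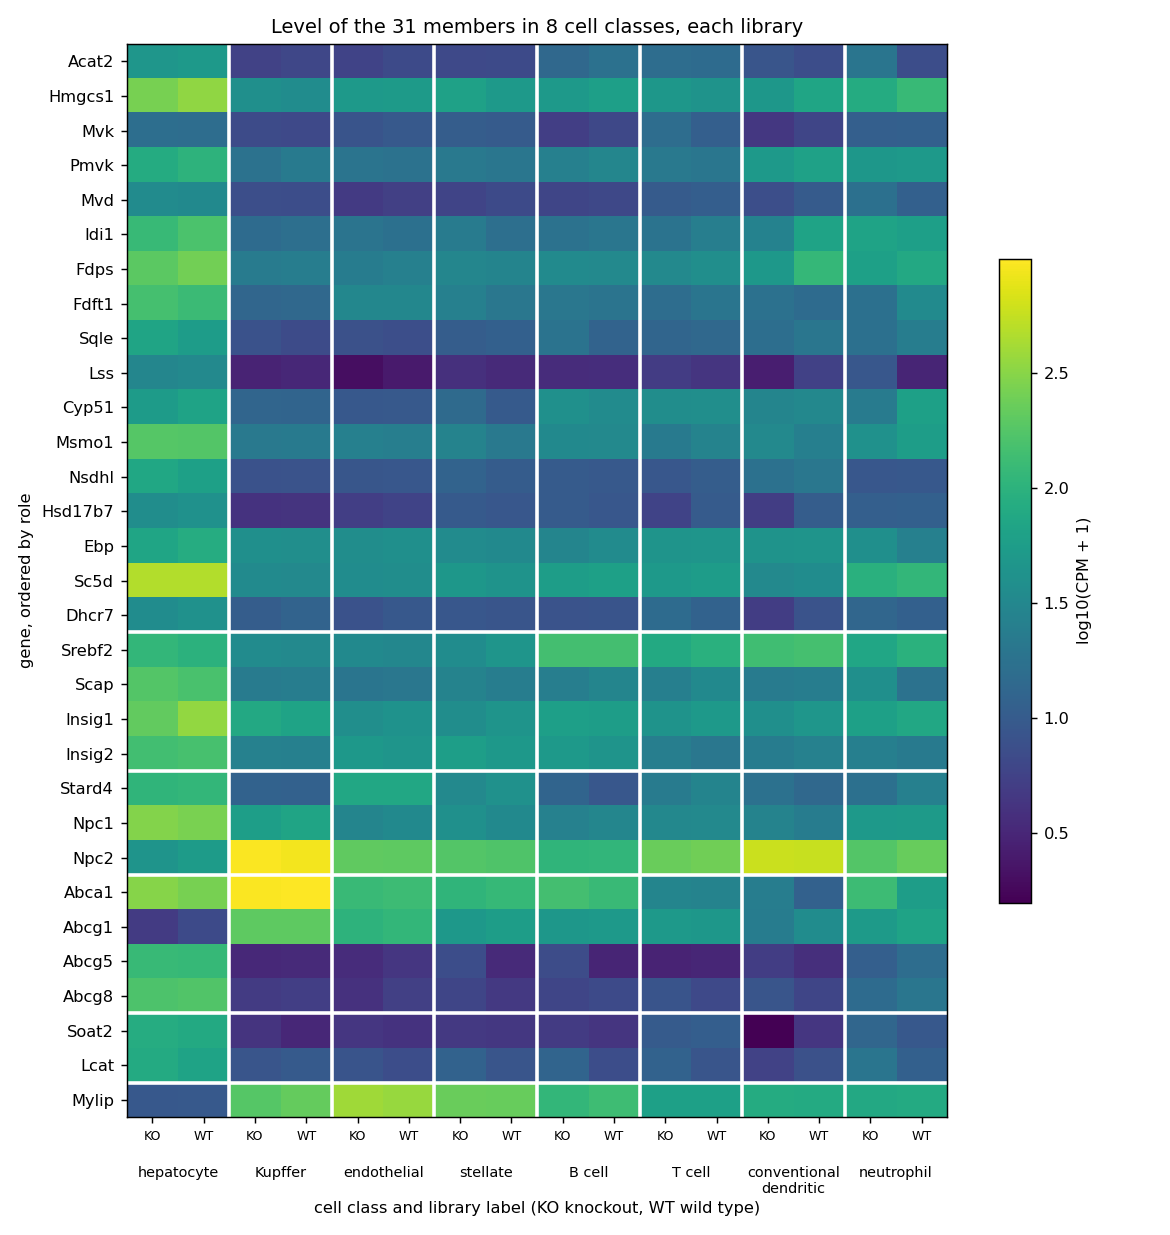
Levels of the 31 genes (rows, ordered by role and parted by white lines) in 8 cell classes, with the 2 libraries side by side (columns); colour is log10 of CPM plus 1. The synthesis rows are brightest in the hepatocyte columns, Npc2, Abca1 and Abcg1 in Kupffer cells, and Mylip in endothelial cells, alike in both libraries.

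Between the libraries, Insig1 of hepatocytes was the called difference that rested on the most UMIs. Its 5075 UMIs gave 209 CPM in the knockout-labelled library and its 8626 UMIs gave 345 CPM in the wild-type library. The ratio was 0.607 (0.586 to 0.629). The other gene called lower was Abcg1, with 93 and 145 UMIs and a ratio of 0.662 (0.505 to 0.865). No member was called higher. These are 2 of 31 lower and 0 of 31 higher, against 2.32% lower and 2.72% higher of the 14462 genes tested in hepatocytes. With a 2-fold difference required, 0 of 31 were called, where 0.615% of genes were lower and 0.685% higher. Abcg1 was not called when doublet calls were kept, when the mitochondrial limit was 10%, or at a Leiden resolution of 0.5.

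Abcg1 in hepatocytes amounted to 1.90% and 2.91% of its Kupffer level. All 8 Kupffer markers had UMIs in the hepatocyte class, where they summed to 196 and 199 CPM against 17915 and 19363 CPM in Kupffer cells, and all 9 endothelial markers did, at 534 and 542 CPM. Their part in the Abcg1 values was not tested.

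Insig1 was also found in fewer hepatocytes. At 2000 UMIs per cell it was seen in 31.3% (29.5% to 33.1%) of knockout-labelled and 48.1% (46.2% to 50.1%) of wild-type hepatocytes, with 350 and 526 shallower cells left out. Without thinning the shares were 63.2% and 70.8%, at median depths of 5402 and 4892 UMIs. T cells gave 6.54% and 9.74% at the thinned depth, with median depths of 4816 and 5046 UMIs.

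Of the 17 synthesis enzymes, 0 were called in hepatocytes, 10 lay below a ratio of 1 and 7 above, and their median log2 ratio was -0.13, against 0.04 for all genes tested. The 3 lowest ratios were those of Hmgcs1, Idi1 and Fdps. Hmgcs1 stood at 262 and 343 CPM, a ratio of 0.764 (0.740 to 0.789). Idi1, the isomerase of the isoprenoid units, had a ratio of 0.766 (0.730 to 0.804), and Fdps, which joins those units, had 0.774 (0.745 to 0.804).

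On the other side, Sqle, the squalene epoxidase, stood at 66.5 and 54.5 CPM, a ratio of 1.22 (1.14 to 1.31). Fdft1, which makes squalene, stood at 148 and 125 CPM, a ratio of 1.18 (1.12 to 1.24), and Nsdhl at 72.3 and 61.1 CPM, also 1.18 (1.10 to 1.27). Neighbouring steps did not always share a direction. Idi1 and the next enzyme Fdps both lay below 1, and Fdft1 and the next enzyme Sqle both above. Mvd, the step before Idi1, had a log2 ratio of 0.06 and Mvk 0.02, while Pmvk, which acts between Mvk and Mvd, had -0.30. The late enzymes Cyp51 and Ebp had -0.29 and -0.28. None of these reached the size rule.

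Hepatocytes fell into 7 clusters that differed sharply in Malat1, a nuclear RNA. Clusters 1, 2, 18 and 25 held 31446 to 46396 CPM of Malat1 and are called Malat1-rich. They contained 4518 cells, 79.9% of the knockout-labelled and 72.0% of the wild-type hepatocytes. Clusters 10 and 36, called Malat1-poor, held 722 and 2904 CPM and counted 292 and 435 cells in the 2 libraries. Cluster 6 lay between at 8861 CPM and had a median of only 660 UMIs per cell.

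Several early enzymes and the biliary exporters took opposite sides of that division. In the Malat1-poor clusters Fdps stood at 715 and 719 CPM, against 104 and 117 CPM in the Malat1-rich clusters. Idi1 stood at 440 and 438 CPM against 63.9 and 75.9 CPM. The reverse held for Abcg8 at 17.1 and 19.0 CPM in the poor and 190.3 and 219.8 CPM in the rich clusters, and for Soat2 at 7.28 and 8.80 CPM against 97.4 and 98.7 CPM.

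By the size rule applied in both libraries, 10 genes were higher in the Malat1-rich clusters (Fdft1, Lss, Msmo1, Srebf2, Scap, Npc1, Abca1, Abcg5, Abcg8 and Soat2) and 8 in the Malat1-poor clusters (Acat2, Hmgcs1, Mvk, Pmvk, Idi1, Fdps, Ebp and Npc2). Across the 12642 genes tested, 57.9% and 18.8% were. The remaining 13 met neither. Across the 31 genes, the Spearman correlation of gene span with the log2 ratio of rich to poor was 0.48 and 0.46, and it was 0.45 in each library across 12364 genes. Genes of a library share its cells and depth, so this is a description. Spans ran from 3.83 kb for Lcat to 129 kb for Abca1.

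The lower Insig1 of the knockout-labelled library lay in the Malat1-rich clusters. Its level was 202 against 369 CPM over these clusters, a ratio of 0.548 (0.527 to 0.570). Cluster 1 gave 199 and 368 CPM, cluster 2 gave 198 and 377 CPM, cluster 18 gave 198 and 332 CPM, and cluster 25 gave 247 and 377 CPM. In the Malat1-poor clusters Insig1 stood at 231 and 250 CPM, a ratio of 0.927 (0.849 to 1.01). Cluster 36 alone had a ratio above 1, at 1.02.

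Hmgcs1 followed the same division. Its ratio was 0.717 (0.686 to 0.748) in the Malat1-rich and 1.08 (1.02 to 1.13) in the Malat1-poor clusters. Within cluster 6 it stood at 779 and 545 CPM. Cluster 25, which is Malat1-rich, gave 307 and 318 CPM, so the lower Hmgcs1 rested on clusters 1, 2 and 18.

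The lower totals of Fdps and Idi1 shrank within these groups. Fdps had ratios of 0.894 and 0.994 in the rich and poor clusters, against 0.774 over all hepatocytes, and Idi1 had 0.841 and 1.01, against 0.766. For Ebp, the sterol isomerase, the ratio of 0.825 over all hepatocytes became 1.06 in the rich clusters and 0.918 in the poor. The share of hepatocytes in Malat1-rich clusters differed between the libraries, as given above, and its part in the totals was not tested.

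Sqle and Fdft1 lay above 1 in 7 of 7 hepatocyte clusters, though these come from the same 2 libraries and are not replicates. The interval left out 1 only in clusters 1, 2 and 36 for Sqle and in clusters 2, 25 and 36 for Fdft1. Cluster 10 gave 1.07 (0.768 to 1.48) for Sqle and 1.03 (0.859 to 1.24) for Fdft1. Lcat reached a ratio of 1.48 (1.37 to 1.61) in the Malat1-rich clusters, at 75.8 and 51.1 CPM, just short of the size rule, against 0.902 in the poor. Called lower were Insig1 and Abcg1 in the rich clusters, 2 of 31, against 1.72% of genes. In the poor clusters it was Abcg5, 1 of 30 with enough UMIs, at 39 and 96 UMIs, against 3.59%. No member was called higher in either, where 2.16% and 1.40% of genes were. The summed hepatocyte markers differed as well, at 20620 and 25506 CPM, and their part in these values was not tested.

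**Figure D3:**
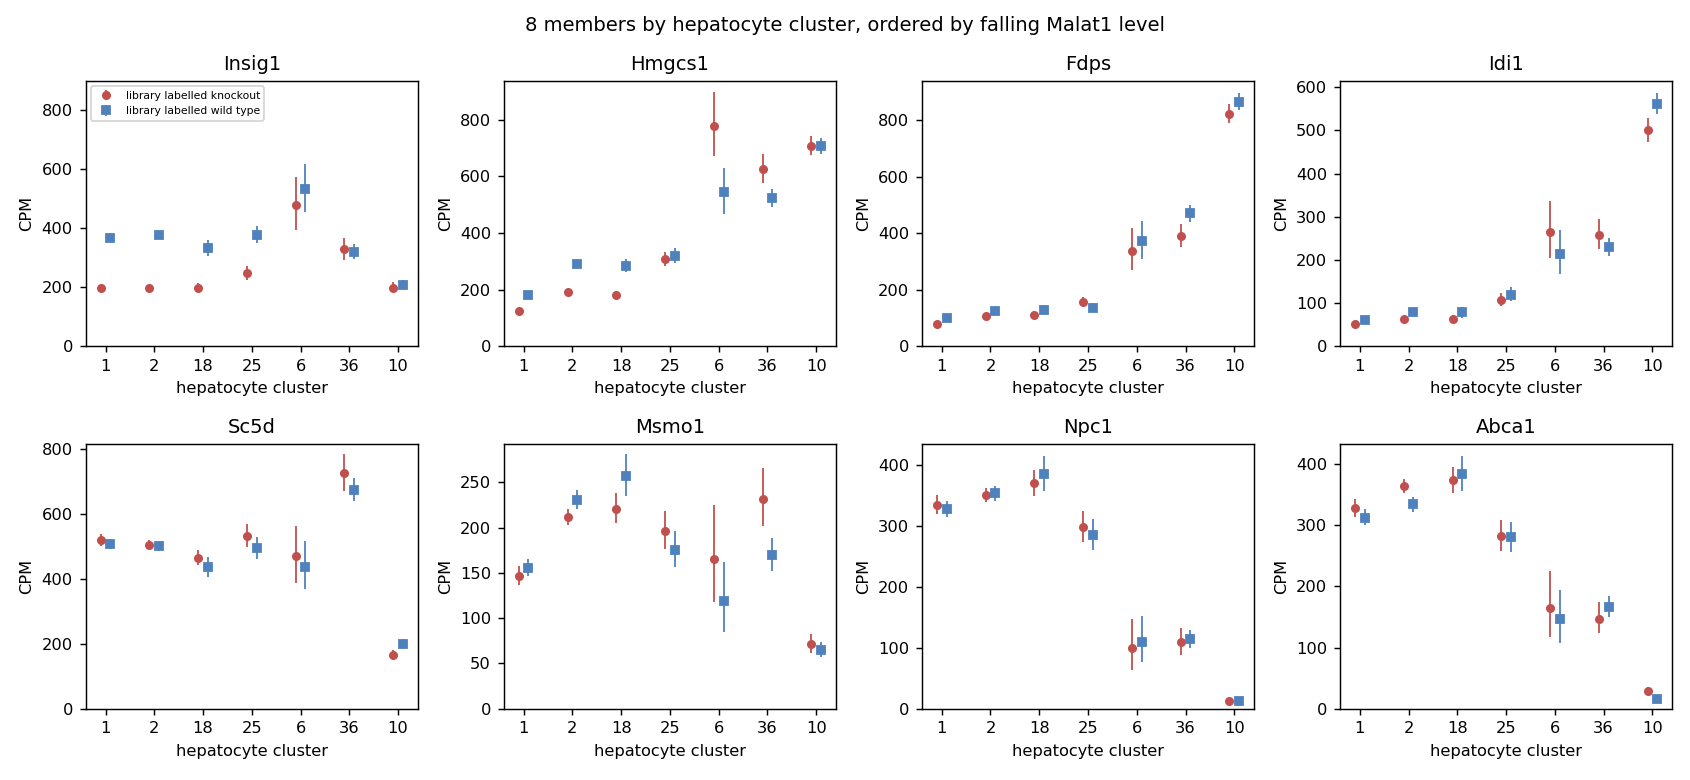
CPM of 8 genes (panels, y axis from 0) in the 7 hepatocyte clusters, ordered along the x axis by falling Malat1; circles are the knockout-labelled and squares the wild-type library, with exact 95% Poisson intervals. Insig1 is lower in the knockout-labelled library in the 4 Malat1-rich clusters on the left, and Fdps and Idi1 are highest and Npc1 and Abca1 lowest in cluster 10 on the right.

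**Figure D4:**
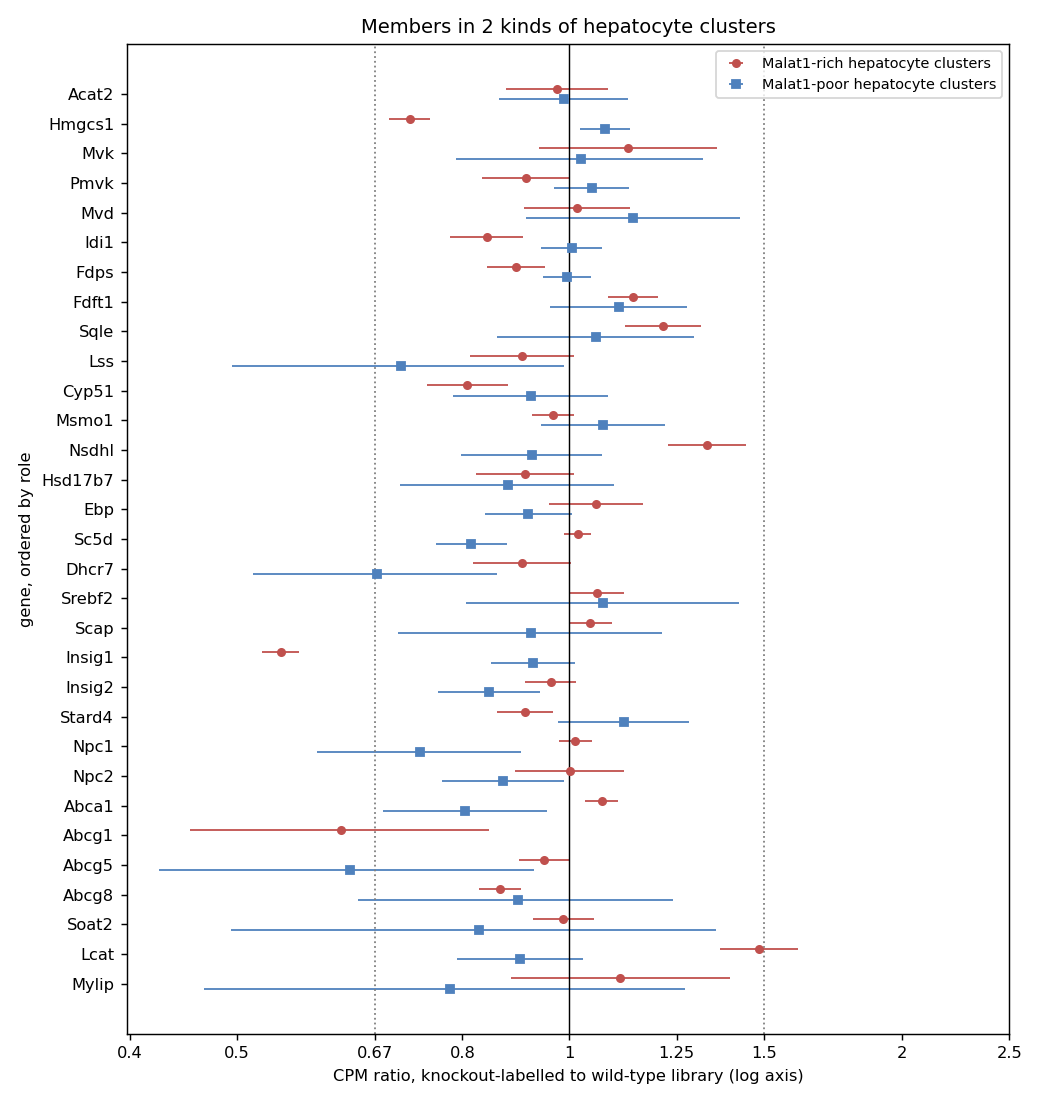
CPM ratio of the knockout-labelled to the wild-type library (x axis, log scale) for each gene with at least 50 UMIs, in Malat1-rich (circles) and Malat1-poor (squares) hepatocyte clusters, with exact 95% intervals; dotted lines mark 1.5-fold. Insig1 lies at 0.548 in the rich and 0.927 in the poor clusters, and most other genes lie inside the dotted lines.

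In endothelial and Kupffer cells 0 of 31 genes were called in either direction, where 0.844% and 1.27% of genes were called higher and 2.29% and 2.38% lower. With each cell weighted equally, 5 were called in Kupffer cells (Pmvk, Sqle, Cyp51, Abcg5 and Soat2) and 1 in endothelial cells (Soat2). All 5 are low in Kupffer cells, at 2.26 to 20.8 CPM. The shares of all genes given above are for summed UMIs, so the counts with equal weights have no such share beside them. The abundant Kupffer genes were close between the libraries, with ratios of 1.09 (1.06 to 1.11) for Npc2, 0.954 (0.930 to 0.978) for Abca1 and 1.01 (0.957 to 1.07) for Abcg1. Mylip in endothelial cells had a ratio of 1.08 (1.05 to 1.11).

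The small classes gave a few calls on few UMIs. In dendritic cells Idi1 had 45 and 116 UMIs, 26.4 and 65.5 CPM, a ratio of 0.402 (0.279 to 0.572), and Fdps had 82 and 205 UMIs, 48.0 and 116 CPM, a ratio of 0.415 (0.317 to 0.538). Both also lay below 1 in each of the 2 dendritic clusters, at 0.284 and 0.738 for Idi1 and 0.388 and 0.503 for Fdps. The 0.738 of Idi1, in cluster 45, had an interval of 0.411 to 1.30. Abcg1 was lower there too, at 0.652, and Abca1 higher at 2.18 on 40 and 19 UMIs. That is 3 of 21 lower and 1 of 21 higher among genes with 50 UMIs, against 4.87% and 3.22% of all genes. All 8 hepatocyte markers had UMIs in this class, summing to 2593 and 3272 CPM, and all 8 Kupffer markers, summing to 354 and 265 CPM. Of 7 monocyte markers 6 had UMIs, summing to 196 and 228 CPM. Their part was not tested.

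In neutrophils Abca1 was higher, with 64 and 27 UMIs and a ratio of 2.28 (1.43 to 3.72), 1 of 11 genes with enough UMIs against 12.0% of all genes, and 0 were lower against 6.61%. The 8 Kupffer markers summed to 1246 and 560 CPM in these neutrophils, and the 8 hepatocyte markers to 9916 and 10077 CPM. In hepatocytes the latter summed to 20620 and 25506 CPM. The part of either set was not tested. Stellate cells had Cyp51 higher on 62 and 51 UMIs, 1 of 27 against 2.77%, with 0 lower against 1.73%. Its ratio was 2.42 (1.09 to 5.88) in stellate cluster 15, on 25 and 9 UMIs. Clusters 17 and 42 gave 1.19 (0.651 to 2.15) and 1.01 (0.433 to 2.32), and cluster 49 had 2 and 0 UMIs. T cells had Hsd17b7 lower on 17 and 33 UMIs, 1 of 28 against 1.55%, with 0 higher against 5.18%. Its ratio was 0.0860 in T-cell cluster 21, on 1 and 13 UMIs, and 0.319 in cluster 41. Cluster 14 gave 1.30 (0.402 to 4.11), and cluster 19 had 1 UMI in each library. B cells had 0 of 22 called, where 1.52% of genes were higher and 2.14% lower.

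Hepatocytes change their metabolism along the lobule, from the portal inflow to the central vein. They were ranked by a score of 12 pericentral minus 12 periportal markers and cut into tertiles over both libraries. Cyp2e1, a pericentral marker, went from 149 and 104 CPM in the periportal tertile to 1676 and 1398 CPM in the pericentral tertile, and Cyp2f2, a periportal one, from 535 and 530 CPM to 89.6 and 85.1 CPM. The score is continuous, and 513 hepatocytes (8.61%) lay within 0.05 of a cut.

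Summed transcripts of the synthesis enzymes were more abundant toward the pericentral end, though not for every enzyme. The 17 enzymes summed to 1792 and 1871 CPM in the periportal tertile, 1897 and 2056 CPM in the middle and 2050 and 2369 CPM in the pericentral tertile. Of the 17, 5 lay below a pericentral-to-periportal ratio of 1 in the knockout-labelled library (Mvk, Pmvk, Idi1, Fdps and Ebp) and 3 in the wild-type library (Pmvk, Sqle and Ebp). Their median log2 ratio was 0.25 and 0.24, against 0.10 and 0.06 for all genes tested. Msmo1, the sterol methyl oxidase, was higher in the pericentral tertile, with 218 against 120.2 CPM in the knockout-labelled library and 224 against 123 CPM in the wild-type library, ratios of 1.82 and 1.82. Nsdhl, which acts after it, had 82.5 against 54.8 CPM and 71.8 against 47.8 CPM, ratios of 1.506 and 1.501. These 2 of 31 were called pericentral in both libraries and 0 periportal, against 4.66% and 5.23% of the 11730 genes tested. Nsdhl only just passed, and it was short of 1.5-fold in at least 1 library with doublet calls kept, with the mitochondrial limit of 10%, at a Leiden resolution of 0.5, when centred on the median gene or with each cell weighted equally. Fdft1 passed instead with doublet calls kept or the 10% limit, and Hmgcs1 and Cyp51 with equal weights.

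Among the others, some had higher pericentral values without passing in both libraries. Cyp51 had ratios of 1.48 and 1.77, Fdft1 1.66 and 1.46, Hmgcs1 1.20 and 1.60, and Abcg8 1.40 and 1.46. In both libraries 5 genes lay below 1: Npc2 at 0.685 and 0.792, Pmvk at 0.696 and 0.878, Insig2 at 0.741 and 0.878, Ebp at 0.799 and 0.959 and Stard4 at 0.913 and 0.799. Pmvk turned to 1.37 and 1.08 in the Malat1-rich clusters. Npc2 was called periportal with the mitochondrial limit of 10%. With each cell weighted equally, it turned to log2 ratios of 0.33 and 0.20 and Ebp to 0.18 in each library. Insig1 showed little zonation, at 1.11 and 1.04, and its library difference was present in each end of the score, at 198 and 320 CPM periportal and 219 and 334 CPM pericentral.

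Malat1-rich cells made up 81.5% and 80.1% of the periportal, 78.3% and 67.3% of the middle and 79.8% and 68.2% of the pericentral tertile, and median depths ran from 4756 to 6349 UMIs. Within the Malat1-rich clusters alone, Hmgcs1 was called pericentral (1.51 and 1.79) together with Msmo1 (1.63 and 1.69) and Nsdhl (1.68 and 1.67), against 3.02% of genes, and again 0 periportal, against 3.01%. Sc5d, at 1.19 and 1.18 over all hepatocytes, stood at 0.988 and 1.002 there.

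**Figure D5:**
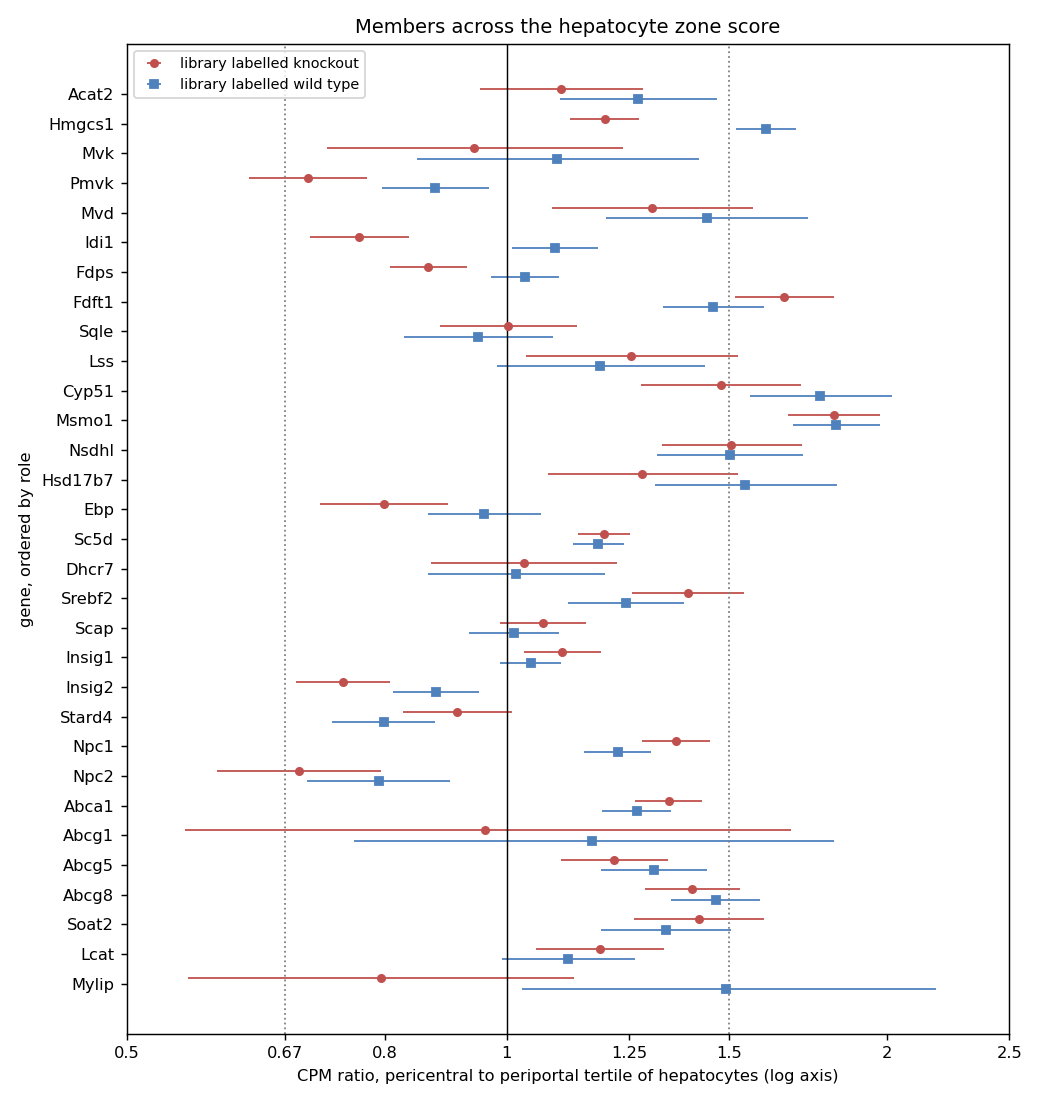
CPM ratio of the pericentral to the periportal tertile of hepatocytes (x axis, log scale) for each of the 31 genes, in the knockout-labelled (circles) and wild-type (squares) library, with exact 95% intervals; dotted lines mark 1.5-fold. Msmo1 and Nsdhl lie at or beyond 1.5 in both libraries, Hmgcs1, Fdft1, Cyp51 and Hsd17b7 beyond it in 1 of them.

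The other 35 genes of cholesterol handling gave 0 calls between the libraries in hepatocytes among the 34 with enough UMIs. Cyp7b1, an oxysterol hydroxylase, was higher in endothelial cells of the knockout-labelled library, with 1001 and 732 UMIs and a ratio of 1.52 (1.38 to 1.68), and in Kupffer cells, on 38 and 16 UMIs. These are 1 of 34 and 1 of 33 called higher, against the 0.844% and 1.27% of genes given above, and 0 called lower. In the other classes compared, 1 was called higher and 1 lower of 28 in B cells, 1 higher of 32 in stellate cells, 2 higher of 13 in neutrophils, 2 higher of 21 in dendritic cells and 0 of 30 in T cells. The shares of all genes called in these classes stand with the members' counts. Across the zone score 4 of 32 were pericentral in both libraries and 0 periportal, against 4.66% and 5.23% of all genes tested. The 4 were Cyp27a1 (2.96 and 2.62) and Cyp7b1 (5.47 and 3.16), which start the alternative route from cholesterol to bile acids, the lipoprotein receptor Vldlr (6.29 and 11.5) and the ester hydrolase Nceh1 (2.28 and 2.32).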

How the data were processed

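The members and gene lists were chosen with earlier results of these data known. The deposited values are raw UMI counts per gene and barcode, and per the file headers they come from Cell Ranger 8.0.1. STAR and the mm10 build appear in the submitters' processing notes. Per the labels, 3' v3 libraries were made from suspended single cells of liver.

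Cells with at least 500 UMIs, 300 genes and at most 20% mitochondrial UMIs were kept. Scrublet (scanpy 1.11.5, expected rate 8%) scored doublets in each library, and the wild-type threshold of 0.291 was used for both, which removed 324 (2.83%) and 402 (3.23%) barcodes. Both libraries were clustered together on 2000 variable genes without the 31 members or the 35 other genes, 30 components and 15 neighbours, by leidenalg 0.10.2 at resolution 1.0. Clusters were named from marker lists. A cluster stayed unnamed when its scores were ambiguous, its doublet score was at least 0.15, or under 3 markers of its class were found. So did a cluster with low UMIs and no marker of its class among its leading genes, or with leading genes that belonged to another class. The last rule was set after seeing the data.

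UMIs were summed per class and library. Ratios carry exact Clopper-Pearson intervals, CPM exact Poisson intervals, shares exact binomial intervals (scipy 1.17.1), and log2 ratios a pseudocount of 0.5. No p-value was computed, since cells are not replicates. The free-RNA allowance of a gene in a class is its level in hepatocyte cluster 36 times the share of that cluster's Alb level found in the class. Gene spans are from GENCODE on GRCm38. All 31 members were named. The size rule and the ratio intervals were tested on simulated counts, drawn around pooled hepatocyte levels with counting error only. Clustering, naming, zone scores, the free-RNA allowance and variation between animals were not part of that test. Alternatives covered filters, doublets, resolution, scaling, the UMI minimum, the fold and the zone cuts.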

Additional observations from a re-analysis of the deposited data

Results flagged for a closer look

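In 4 genes the hepatocyte ratio of the knockout-labelled to the wild-type library lay on one side of 1, and the ratio of another class lay on the other, each with an interval that left out 1. The differences between classes were not tested. Insig1 had a ratio of 0.607 in hepatocytes and 1.15 in Kupffer cells. Npc2 had 0.821 in hepatocytes and 1.09 in Kupffer cells. Npc1 had 1.09 in hepatocytes, 0.848 in Kupffer cells and 0.885 in endothelial cells. Abca1 had 1.14 in hepatocytes, 0.954 in Kupffer cells and 0.941 in endothelial cells. In the Malat1-rich hepatocyte clusters alone, the ratios of Npc1 and Npc2 were 1.01 and 1.001, and those of Insig1 and Abca1 were 0.548 and 1.07. In the Malat1-poor clusters Npc1 and Abca1 lay below 1, at 0.732 (0.590 to 0.905) and 0.805 (0.678 to 0.954), as in Kupffer and endothelial cells, and Npc2 and Insig1 had 0.871 and 0.927.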

How the results depend on the processing

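The log2 ratio of Insig1 in hepatocytes stayed below 0 in the 8 alternatives run for it, from -0.87 to -0.67. The count of 2 members called in hepatocytes became 1 with doublet calls kept, 1 with a mitochondrial limit of 10%, 1 at a Leiden resolution of 0.5, and 0 with a ratio of at least 2. In endothelial cells the count of 0 became 1 with doublet calls kept, 1 with a mitochondrial limit of 10% and 1 with each cell weighted equally; in Kupffer cells it became 5 with each cell weighted equally. The other pathway genes in hepatocytes went from 0 to 1 with doublet calls kept (Lima1). The median log2 ratio of the synthesis enzymes, -0.13, became -0.10 with doublet calls kept, -0.11 with the mitochondrial limit of 10%, -0.0029 with each cell weighted equally, -0.18 when centred on the median gene, and -0.0496 in the Malat1-rich clusters. The 2 pericentral genes became 1 at a Leiden resolution of 0.5, 1 when centred on the median gene and 0 with a ratio of at least 2. They became 3 with quartiles of the zone score (Fdft1 added), with equal cell weights (Msmo1, Hmgcs1 and Cyp51) or in the Malat1-rich clusters (Hmgcs1 added). With the mitochondrial limit of 10% they became Msmo1, Fdft1 and, toward the periportal end, Npc2 (log2 ratios of -0.69 and -0.72); Fdft1 took the place of Nsdhl with doublet calls kept. The causes were not tested, apart from the stricter fold. Under most of these settings the counts of called genes have no share of all genes beside them. The exceptions are the 2-fold rule between the libraries in hepatocytes and the zone comparison within Malat1-rich clusters, whose shares are given above. The other changed counts can therefore not be set against the share of all genes. The other 40 settings of these counts and medians stayed within the limits used. The subset of Malat1-rich clusters was chosen after seeing the data. No paired analysis was possible because each genotype has 1 library. Depth limits the neutrophil and dendritic classes, where 11 and 21 of the 31 genes had 50 UMIs.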
